A study of Mus musculus with 7 samples.

Results

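The platelet-derived growth factor (PDGF) genes were examined in bulk RNA sequencing of glioblastoma (GBM) from 2 genetic mouse models. The set held 6 of the 49492 genes in the count table and its members were found there by gene name. The 4 ligand genes were Pdgfa, Pdgfb, Pdgfc and Pdgfd, and the 2 receptor genes were Pdgfra and Pdgfrb. All 6 were counted in the libraries and all 6 passed the filter on low counts.

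C57BL/6 mice aged 3 months were the labelled source of all 7 libraries. Per the methods, the Tbx18 reporter mice that were used for DsRed-labelled NPCTKO tumors had a mixed strain background. The sources used here do not say in which mouse line each library arose. The NSCHRas-shp53 group had 3 libraries of whole tumor tissue, which was not sorted. These tumors were started in adult mice by lentivirus that carried a short hairpin RNA to Trp53 together with constitutively active human HRAS, placed in the ventricular-subventricular zone. The NPCTKO group had 4 libraries of EGFP+ or DsRed+ tumor cells collected by fluorescence-activated sorting. These tumors were started by in utero electroporation of neocortical precursors with piggyBac plasmids for Cas9, luciferase and guide RNAs to tumor suppressor genes, Trp53 and Nf1 among them. No untreated brain or cell was among the libraries. The model and the preparation of the sample changed together, so that every difference below is between whole NSCHRas-shp53 tumor and sorted NPCTKO cells, and the 2 sources cannot be told apart. The sources used here do not say whether each library came from its own mouse, so the p-values measure the spread between these libraries, part of which may be technical.

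PDGF ligands are secreted dimers that bind receptor tyrosine kinases, which then pair, phosphorylate each other and recruit adaptors of the Ras, phosphoinositide 3-kinase and phospholipase C pathways. PDGF-A acts through the alpha receptor, PDGF-B through both receptors, and PDGF-C and PDGF-D are released as latent forms that proteases must cut. In the brain, the alpha receptor marks oligodendrocyte precursor cells (OPCs), and PDGF-B from endothelial cells recruits pericytes that carry the beta receptor. In human glioma, PDGFRA is a gene that can be amplified, and proneural tumors often express it strongly.

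The libraries held between 17529054 and 19840860 counts in NSCHRas-shp53 and between 15002873 and 19247326 counts in NPCTKO. Of 16091 tested genes, 1251 were called higher and 850 lower in NSCHRas-shp53 (edgeR quasi-likelihood test, Benjamini-Hochberg adjusted p under 0.05). With an adjustment for GC content added after the data were seen, the calls were 1450 higher and 1526 lower. Levels are given as CPM, the counts of a gene as a share of its library scaled to a common depth. Trp53 and Nf1, which were targeted in the models, were counted in both groups: Trp53 had 54.9 to 82.2 CPM in NSCHRas-shp53 and 91.8 to 200.1 CPM in NPCTKO, and Nf1 had 98.3 to 133 CPM in NSCHRas-shp53 and 41.5 to 229.8 CPM in NPCTKO. A gene count does not show whether a transcript carries a guide-made deletion. The NPCTKO libraries did not fall together. Replicates 1 and 2 had GC-rich genes above their mean and high microglia and macrophage markers, while replicates 3 and 4 had GC-rich genes below their mean. The Spearman correlation across genes between transcript GC content and the deviation from the mean of all libraries was -0.16, -0.26 and -0.29 in the NSCHRas-shp53 libraries. It was 0.57 and 0.49 in NPCTKO replicates 1 and 2, and -0.38 and -0.35 in replicates 3 and 4. The count table also held 24308 genes at 0 counts in all libraries. Of the 4461 of these that the deposited FPKM table also lists by name, 517 had a mean of at least 1 FPKM (fragments per kilobase of transcript, scaled to library depth). A 0 in the count table thus does not show that a gene had no transcript, and the summed CPM of marker lists leave such genes out.

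The start regions of 3 of the genes are shown because they represent the patterns found below: Pdgfd was higher, Pdgfra was lower, and Pdgfa was an abundant ligand that was not called. The windows are from RefSeq (GRCm38.p6), cover 250 bases before to 50 bases after a start site, and run 5′ to 3′ on the strand of the gene. RefSeq windows were used for 4 of the 6 genes, since none was at hand for Pdgfb and Pdgfrb was left out of the search. Capitals mark matches, on either strand, to any of 6 motifs that were searched, the AP-1 site (TGANTCA), the GC box (GGGCGG), the E-box (CAGCTG), the TATA box (TATAAA), the SOX site (ACAAAG) and the ETS site (CCGGAAG). No match overlapped another in these windows. The Pdgfd window is chr9:6168236-6168535 on the plus strand, the Pdgfra window is chr5:75152001-75152300 on the plus strand, and the Pdgfa window is chr5:138994895-138995194 on the minus strand, the more upstream of the 2 Pdgfa start sites.
Pdgfd: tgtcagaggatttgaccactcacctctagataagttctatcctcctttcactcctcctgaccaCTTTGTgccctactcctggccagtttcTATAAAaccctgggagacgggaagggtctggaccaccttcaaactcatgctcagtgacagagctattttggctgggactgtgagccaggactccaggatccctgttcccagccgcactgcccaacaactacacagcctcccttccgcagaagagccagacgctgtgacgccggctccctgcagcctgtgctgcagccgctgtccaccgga
Pdgfra: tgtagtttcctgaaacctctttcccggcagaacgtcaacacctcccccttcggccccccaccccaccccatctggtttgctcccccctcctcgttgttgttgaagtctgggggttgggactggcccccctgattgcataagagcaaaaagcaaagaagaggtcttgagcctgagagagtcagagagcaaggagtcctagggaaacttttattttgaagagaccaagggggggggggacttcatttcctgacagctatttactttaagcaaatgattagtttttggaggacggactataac
Pdgfa: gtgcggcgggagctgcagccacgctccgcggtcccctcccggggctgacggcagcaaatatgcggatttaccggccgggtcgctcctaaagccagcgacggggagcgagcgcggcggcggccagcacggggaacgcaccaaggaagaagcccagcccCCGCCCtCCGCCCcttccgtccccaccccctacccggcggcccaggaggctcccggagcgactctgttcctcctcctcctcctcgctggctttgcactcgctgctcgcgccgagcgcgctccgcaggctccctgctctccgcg

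The Pdgfd window held a TATA box sequence 160 bases before the start site and, on the opposite strand, a SOX sequence that began 187 bases before it. The TATA box letters were present in 13.62% of 32851 mouse promoter windows of the same length, and the SOX letters in 18.71%. The Pdgfra window held none of the 6 letter strings. The Pdgfa window held a pair of GC boxes on the opposite strand, a motif found in 35.66% of windows. The AP-1, E-box and ETS strings, present in 7.81%, 16.3% and 8.86% of all windows, had no match in these 3 windows. GC content was 56.7% for Pdgfd, 51.0% for Pdgfra and 73.3% for Pdgfa, against a median of 52.67% over all windows. The Pdgfa window had 37 CpG dinucleotides, the Pdgfd window 8 and the Pdgfra window 5, against a median of 7. These matches describe letters only, since no binding was measured.

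Of the 6 genes, 2 were called higher and 1 was called lower in NSCHRas-shp53, against 7.77% and 5.28% of all tested genes in these directions. The beta receptor and Pdgfd were higher, the alpha receptor was lower, and Pdgfa, Pdgfb and Pdgfc were not called. The same 3 genes were those whose CPM did not overlap between the models, 2 higher in NSCHRas-shp53 against 16.4% of tested genes and 1 lower against 14.9%.

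**Figure D1:**
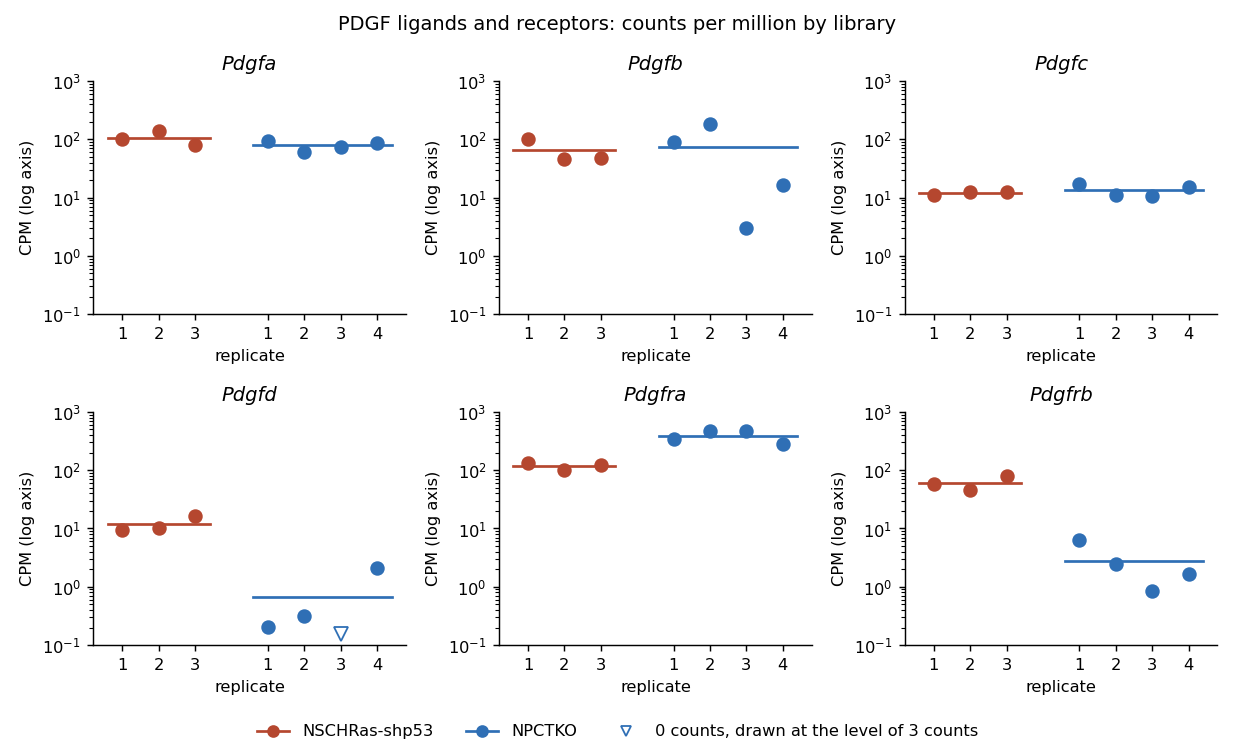
CPM (log axis) of the 6 PDGF genes in each library, NSCHRas-shp53 left (red, 3 libraries) and NPCTKO right (blue, 4 libraries), with group means as lines and a count of 0 drawn as an open triangle at the level of 3 counts. Pdgfrb and Pdgfd are higher in every NSCHRas-shp53 library, Pdgfra is higher in every NPCTKO library, and Pdgfb spreads from 3.07 to 186 CPM among the NPCTKO libraries.

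The receptors moved in opposite directions. Pdgfrb (ENSMUSG00000024620; mm10 chr18:61045150-61085061, plus strand) encodes the beta receptor, whose loss in mice leaves brain capillaries short of pericytes. Pdgfrb had 57.7, 45.7 and 78.3 CPM in the NSCHRas-shp53 libraries, against 6.30, 2.41, 0.832 and 1.63 CPM in the NPCTKO libraries. The groups did not overlap, and the lowest NSCHRas-shp53 library was far above the highest NPCTKO library. The counts behind these levels were 1057, 901 and 1813 in NSCHRas-shp53 and 94, 31, 16 and 27 in NPCTKO. Pdgfrb was 21.7-fold higher in NSCHRas-shp53 (log2 fold change 4.44 ± 0.67, SE; 95% interval 2.92 to 5.96; edgeR adjusted p = 0.00731), which placed it at rank 270 of the 16091 tested genes by p-value. It was called in each of the 19 alternatives, with adjusted p from 5.21e-10 to 0.0357. The log2 fold change was 5.66 without NPCTKO replicates 1 and 2, 3.77 without replicates 3 and 4, and 2.99 on the log2(FPKM + 1) scale, which understates changes of genes with low values. FPKM, which Cufflinks computed, is a level scaled to transcript length and library depth.

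Markers of mural cells, the pericytes and smooth muscle cells of the vessel wall, differed alongside Pdgfrb. Of 15 mural cell markers, a list that left out Pdgfrb, 9 were called higher in NSCHRas-shp53 and 0 lower. Over all tested genes, 7.77% were called higher and 5.28% lower. The median log2 fold change of the list was 3.11, against -0.10 over all tested genes. Rgs5, a G-protein regulator abundant in pericytes, had 205.8, 158 and 267 CPM in NSCHRas-shp53, against 1.34, 0.700, 0.312 and 4.29 CPM in NPCTKO. Abcc9, a subunit of the pericyte potassium channel, had 28.5, 11.0 and 9.76 CPM in NSCHRas-shp53, against 0.536, 0.389, 0.624 and 0.966 CPM in NPCTKO. Their log2 fold changes were 6.98 ± 0.86 (adjusted p = 0.00393) and 4.68 ± 0.57 (adjusted p = 0.00390; SE, edgeR). The summed level of all 15 markers was 405.5 to 729.7 CPM in NSCHRas-shp53 and 128 to 315 CPM in NPCTKO. The largest part of the sum in every NPCTKO library was Mcam, an adhesion molecule that mural and other cells carry, at 140, 70.9 and 123 CPM in NSCHRas-shp53, against 194, 102, 189 and 59.9 CPM in NPCTKO. Of the 6 markers not called, Acta2, the actin of smooth muscle, had 57.0, 29.1 and 26.2 CPM in NSCHRas-shp53, against 19.2, 20.1, 24.7 and 10.4 CPM in NPCTKO, and Anpep, an aminopeptidase, had 68.1, 28.7 and 52.6 CPM in NSCHRas-shp53, against 80.1, 64.8, 6.30 and 40.2 CPM in NPCTKO. Tbx18, a transcription factor of mural cells, had 2.24, 2.69 and 4.71 CPM in NSCHRas-shp53, against 0.402, 0, 4.16 and 0.906 CPM in NPCTKO. Kcnj8 was at 0 counts in NPCTKO replicate 2 and Higd1b at 0 counts in replicate 3. In bulk RNA, fewer cells of a type and less RNA per cell cannot be told apart.

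Other vascular and stromal lists were also on the side of Pdgfrb. The astrocyte and neuron lists, given below, were on this side too, with median log2 fold changes of 3.775 and 3.345. The shift beside Pdgfrb was thus not particular to vascular and stromal markers. Of 10 tested perivascular fibroblast markers, 5 were called higher and 0 lower in NSCHRas-shp53, against 7.77% and 5.28% of all tested genes. Their median log2 fold change was 2.77. The 11 listed markers summed to 464 to 1190 CPM in NSCHRas-shp53 and 63.0 to 217 CPM in NPCTKO. Ogn, on that list, had 0 counts in all libraries, while the FPKM table lists it at 0.209, 0.769 and 0.841 FPKM in NSCHRas-shp53 and at 0 in all NPCTKO libraries. The fibroblast calls were 8 higher without NPCTKO replicates 1 and 2 and 5 higher without replicates 3 and 4, with 0 lower in both. Col1a2, a chain of type I collagen, had 128, 129.8 and 309 CPM in NSCHRas-shp53, against 24.7, 15.9, 18.2 and 16.0 CPM in NPCTKO. Dcn, the matrix proteoglycan decorin, had 17.0, 13.2 and 59.9 CPM in NSCHRas-shp53, against 0.134, 0, 0.728 and 0.725 CPM in NPCTKO. Of 15 endothelial markers, 5 were called higher and 0 lower (median 1.89), against the same 7.77% and 5.28% of all tested genes. The list summed to 715 to 1402 CPM in NSCHRas-shp53 and 38.6 to 394 CPM in NPCTKO. The endothelial calls were 2 higher without NPCTKO replicates 1 and 2 and 7 higher without replicates 3 and 4, with 0 lower in both. Beside the fibroblast and endothelial calls, 1488 of 16631 tested genes were higher without replicates 1 and 2. Without replicates 3 and 4, 4638 of 16601 were higher. Flt1, a VEGF receptor, had 346, 234 and 277 CPM in NSCHRas-shp53, against 60.7, 55.5, 6.82 and 58.0 CPM in NPCTKO. The part of these cells in the Pdgfrb difference was not tested.

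Pdgfra (ENSMUSG00000029231; mm10 chr5:75152292-75198215, plus strand) encodes the alpha receptor, which binds PDGF-A and drives the division of OPCs. Pdgfra had 134, 99.1 and 121 CPM in the NSCHRas-shp53 libraries, against 339, 478, 477 and 277 CPM in the NPCTKO libraries. The groups did not overlap, and all 3 NSCHRas-shp53 libraries were below the lowest NPCTKO library. Pdgfra was 3.33-fold lower in NSCHRas-shp53 (log2 fold change -1.74 ± 0.34, SE; 95% interval -2.50 to -0.97; edgeR adjusted p = 0.0152), at rank 741 by p-value. The call was lost when NSCHRas-shp53 replicate 1, 2 or 3 was left out (adjusted p = 0.0546, 0.0837 and 0.0832; log2 fold changes -1.80, -1.62 and -1.74) and held in the other 16 of 19 alternatives. The log2 fold change was -1.65 without NPCTKO replicates 1 and 2 (edgeR adjusted p = 0.0200) and -1.80 without replicates 3 and 4 (edgeR adjusted p = 0.00173). The direction was the same in all 19.

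OPC markers were lower in NSCHRas-shp53 along with Pdgfra. Of 13 tested OPC markers, on a list that left out Pdgfra, 6 were called lower and 0 higher. Over all tested genes, 5.28% were called lower and 7.77% higher. The median log2 fold change of these markers was -2.14. The 15 listed markers summed to 1151 to 2028 CPM in NSCHRas-shp53 and 5227 to 8142 CPM in NPCTKO. Gpr17 and C1ql1, at 0 counts in all libraries, are not in these sums. The FPKM table lists Gpr17, a receptor of committed precursors, at 16.7, 3.46 and 4.93 FPKM in NSCHRas-shp53, against 85.6, 189.9, 59.7 and 60.2 FPKM in NPCTKO. It lists C1ql1, a secreted C1q-like protein, at 16.9, 10.7 and 6.73 FPKM in NSCHRas-shp53, against 166, 196, 69.5 and 76.3 FPKM in NPCTKO. Both were lower in every NSCHRas-shp53 library than in any NPCTKO library on that scale. On CPM, this held for 14.9% of tested genes, and the share on FPKM was not counted. The OPC calls were 10 lower without NPCTKO replicates 1 and 2 and 9 lower without replicates 3 and 4, with 0 higher in both. Over all tested genes, 1231 of 16631 and 4313 of 16601 were lower in these settings. Cspg4, the NG2 proteoglycan of OPCs and pericytes, had 70.0, 50.6 and 55.2 CPM in NSCHRas-shp53, against 885, 768, 309 and 356 CPM in NPCTKO (log2 fold change -3.31 ± 0.50, SE; edgeR adjusted p = 0.00761). Cacng4, a regulator of glutamate receptors, had 55.7, 46.9 and 31.4 CPM in NSCHRas-shp53, against 281, 289, 202 and 227 CPM in NPCTKO. The most abundant of the markers, Olig1, a transcription factor of the oligodendrocyte lineage, had 437, 461 and 195 CPM in NSCHRas-shp53, against 1590, 2579, 777 and 1001 CPM in NPCTKO, and did not pass the test (adjusted p = 0.0505). Ptprz1, a receptor phosphatase, had 561, 439.7 and 319 CPM in NSCHRas-shp53, against 229.8 and 391 CPM in NPCTKO replicates 1 and 2 and 1931 and 1786 CPM in replicates 3 and 4. Ptprz1 thus followed the division among the NPCTKO libraries, which Pdgfra did not. Cspg4 and Olig1 also followed it, in the other direction, with higher levels in replicates 1 and 2 than in replicates 3 and 4. Of 10 mature oligodendrocyte markers 1 was called higher and 0 lower, against 7.77% and 5.28% of all tested genes. This was Ermn, a cytoskeletal protein of myelinating cells, at 48.3, 38.4 and 10.1 CPM in NSCHRas-shp53 and 2.08, 5.29, 3.49 and 4.47 CPM in NPCTKO. The Ermn call was lost without NSCHRas-shp53 replicate 1 or 2 (edgeR adjusted p up to 0.0599). Cldn11, a tight junction protein of myelin, had 559, 243 and 117 CPM in NSCHRas-shp53, against 783, 454, 774 and 144 CPM in NPCTKO.

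**Figure D2:**
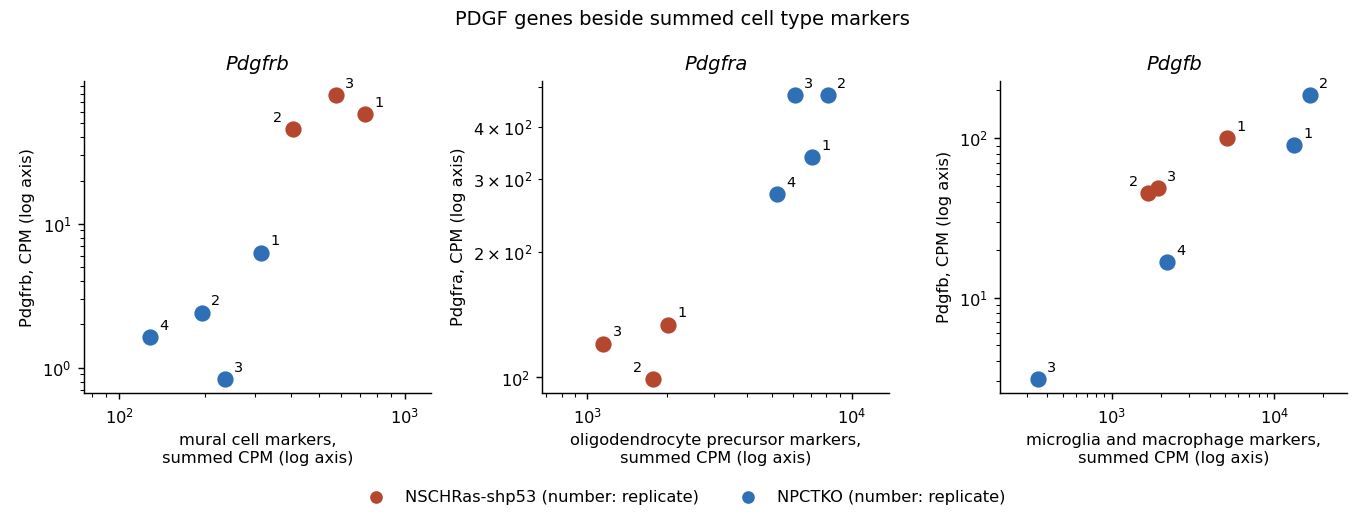
Pdgfrb, Pdgfra and Pdgfb (CPM, log axis) against the summed CPM (log axis) of mural cell, oligodendrocyte precursor, and microglia and macrophage markers, with 1 point per library (red NSCHRas-shp53, blue NPCTKO, numbers give the replicate). For Pdgfrb and Pdgfra the models form separate groups on both axes, while for Pdgfb the NPCTKO libraries lie at both ends, from 3.07 CPM in replicate 3 to 186 CPM in replicate 2.

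Levels of different genes can be set beside each other only per length, so the deposited FPKM values were used for the receptor balance. Pdgfra had 19.5, 14.8 and 18.9 FPKM in NSCHRas-shp53, against 56.2, 78.7, 78.5 and 44.3 FPKM in NPCTKO. Pdgfrb had 9.44, 7.91 and 13.4 FPKM in NSCHRas-shp53, against 0.935, 0.391, 0.102 and 0.251 FPKM in NPCTKO. The Pdgfra level was thus 2.07, 1.87 and 1.40 times the Pdgfrb level in NSCHRas-shp53, and 60.1, 201, 767 and 176 times in NPCTKO. The log2 ratio averaged 0.81 ± 0.29 in NSCHRas-shp53 (SD, n = 3) and 7.65 ± 1.51 in NPCTKO (SD, n = 4), a difference of -6.84. It follows from the opposite changes of both receptors and was not tested on its own. The alpha receptor exceeded the beta receptor in all 7 libraries. With CPM divided by the length of the longest annotated transcript, the difference was -6.50, and leaving out 1 library at a time moved it between -7.42 and -6.20.

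Among the ligands, Pdgfd alone was called. Pdgfd (ENSMUSG00000032006; mm10 chr9:6168584-6378850, plus strand) encodes a latent ligand that, once cut, acts mainly through the beta receptor. Pdgfd had 9.44, 10.3 and 16.6 CPM in the NSCHRas-shp53 libraries, against 0.201, 0.311, 0 and 2.11 CPM in the NPCTKO libraries. The groups did not overlap, although NPCTKO replicate 4 stood above the other 3 NPCTKO libraries. The counts were 173, 204 and 384 in NSCHRas-shp53, against 3, 4, 0 and 35 in NPCTKO, and the 0 of replicate 3 allows a level of up to 0.156 CPM (3 counts, counting error only). Pdgfd was 18.2-fold higher in NSCHRas-shp53 in the fit (log2 fold change 4.19 ± 1.14, SE; 95% interval 1.59 to 6.78; edgeR adjusted p = 0.0458), at rank 1953 by p-value. The call did not hold without NSCHRas-shp53 replicate 1, 2 or 3 (adjusted p = 0.0996, 0.126 and 0.160; log2 fold changes 4.38, 4.29 and 3.90), nor without NPCTKO replicate 1 or 2 (adjusted p = 0.0909 and 0.0926; log2 fold changes 3.93 and 4.01). It held in 11 of 19 alternatives and kept its direction in all 19, with log2 fold changes of 3.57 without NPCTKO replicates 1 and 2 (adjusted p = 0.0979), 5.53 without replicates 3 and 4, and 1.83 on the log2(FPKM + 1) scale. Without NPCTKO replicate 4, the log2 fold change was 6.18 (adjusted p = 0.0134).

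Astrocyte and neuron markers stood on the same side as Pdgfd, as did the mural, fibroblast and endothelial lists above. Of 9 tested astrocyte markers 7 were called higher and 0 lower in NSCHRas-shp53, against 7.77% and 5.28% of all tested genes. The list summed to 3173 to 3977 CPM in NSCHRas-shp53 and 235.6 to 738 CPM in NPCTKO. Gfap, the intermediate filament of astrocytes, had 0 counts in all libraries and is not in these sums, while the FPKM table lists it at 716, 789 and 1096 FPKM in NSCHRas-shp53, against 30.6, 68.3, 19.1 and 86.9 FPKM in NPCTKO. The glutamate transporter Slc1a2 had 919, 515 and 1009 CPM in NSCHRas-shp53, against 11.1, 26.7, 22.0 and 63.4 CPM in NPCTKO. Slc1a3, another glial glutamate transporter, had 1446, 1010.5 and 1237 CPM in NSCHRas-shp53, against 118, 170.0, 142 and 348 CPM in NPCTKO, and S1pr1, a sphingolipid receptor, had 211, 299.7 and 214 CPM in NSCHRas-shp53, against 18.2, 16.3, 5.57 and 30.4 CPM in NPCTKO. Replicate 4 was the highest NPCTKO library for these 3 genes, as it was for Pdgfd. The mural markers Rgs5 and Abcc9 were also highest in replicate 4, while Mcam and Acta2 were lowest there, so this order is not particular to astrocyte markers. Of 10 tested neuron markers 9 were called higher and 0 lower, against the same shares of all tested genes. The neuron list summed to 637 to 816 CPM in NSCHRas-shp53 and 40.2 to 103 CPM in NPCTKO. Nefl, a neurofilament subunit, had 0 counts in all libraries, while the FPKM table lists it at 29.2, 135 and 139 FPKM in NSCHRas-shp53, against 0.0820, 1.96, 4.39 and 3.30 FPKM in NPCTKO. Slc12a5, the neuronal chloride exporter, had 63.6, 35.7 and 61.3 CPM in NSCHRas-shp53, against 6.24, 6.30, 5.88 and 4.95 CPM in NPCTKO. The part of these cells in the Pdgfd difference was not tested. For the mural, fibroblast, endothelial, astrocyte and neuron lists, 0 markers were lower in NSCHRas-shp53 at an unadjusted p under 0.05 in edgeR. By DESeq2, 0 were lower as well, and the count of higher OPC markers was 0 in both tests. Over all genes, DESeq2 called 2183 higher and 1861 lower of 25061, and no share was counted at the unadjusted threshold. On lists this short, a count of 0 adds little on its own.

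Pdgfb (ENSMUSG00000000489; mm10 chr15:79995900-80014808, minus strand) encodes the chain that binds both receptors, and had the widest spread within a model of the genes counted in every library. Pdgfb had 100.4, 45.4 and 48.8 CPM in NSCHRas-shp53, against 90.9, 186, 3.07 and 16.7 CPM in NPCTKO. The groups overlapped, with NPCTKO libraries both above and below all NSCHRas-shp53 libraries. The highest and the lowest NPCTKO library differed 60.7-fold, while those of NSCHRas-shp53 differed 2.21-fold. The log2 fold change was -0.20 ± 1.06 (SE; 95% interval -2.63 to 2.24; edgeR adjusted p = 0.926), so a difference of several-fold in either direction was within the interval. Without NPCTKO replicates 1 and 2 the log2 fold change was 2.76 (adjusted p = 0.0531), and without replicates 3 and 4 it was -1.11 (adjusted p = 0.0629).

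The order of the NPCTKO libraries by Pdgfb was that of their microglia and macrophage markers. These 12 markers summed to 5124, 1681 and 1921 CPM in NSCHRas-shp53, against 13172, 16528, 352 and 2177 CPM in NPCTKO. P2ry12, a purine receptor of microglia, had 0 counts in all libraries and is not in these sums, while the FPKM table lists it at 32.8, 10.02 and 11.5 FPKM in NSCHRas-shp53, against 18.5, 27.5, 2.48 and 6.90 FPKM in NPCTKO. C1qa, a complement subunit that microglia make, had 1697, 605 and 617 CPM in NSCHRas-shp53, against 6861, 8350, 133 and 947 CPM in NPCTKO, and C1qb had 1282, 440.3 and 496 CPM in NSCHRas-shp53, against 3179, 3927, 74.0 and 529 CPM in NPCTKO. Of the 11 tested markers 1 was called higher and 0 lower, against 7.77% and 5.28% of all tested genes. This was Mrc1, a mannose receptor of perivascular macrophages, at 137, 11.2 and 45.5 CPM in NSCHRas-shp53 and 5.90, 12.8, 2.24 and 9.18 CPM in NPCTKO. The Mrc1 call held in 7 of 19 alternatives. Without NPCTKO replicates 3 and 4, 2 of the markers were called higher and 7 lower in NSCHRas-shp53, and without replicates 1 and 2, 1 higher and 0 lower. Over all tested genes, the calls were 4638 higher and 4313 lower of 16601, and 1488 higher and 1231 lower of 16631. Endothelial markers, whose cells are a main source of PDGF-B in brain, summed to 1402, 739 and 715 CPM in NSCHRas-shp53, against 248, 394, 38.6 and 272 CPM in NPCTKO, and were also lowest in NPCTKO replicate 3. Cldn5, a tight junction protein of brain endothelium, had 169, 74.8 and 43.3 CPM in NSCHRas-shp53, against 39.0, 91.1, 3.75 and 33.6 CPM in NPCTKO. The Pdgfb transcript had the highest GC content of the 6 genes (60.0%, with 54.9% for Pdgfrb, 52.1% for Pdgfa, 50.7% for Pdgfc, 48.1% for Pdgfra and 39.9% for Pdgfd), and the NPCTKO libraries in which it was high were those with GC-rich genes above their mean. With GC content offsets, the Pdgfb log2 fold change was 0.32 (adjusted p = 0.828). The part of these cells and of GC content in the spread of Pdgfb was not tested.

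Pdgfa (ENSMUSG00000025856; mm10 chr5:138976014-138997370, minus strand) encodes the ligand of the alpha receptor that neurons and glia supply to OPCs. Pdgfa had 103, 136 and 81.2 CPM in NSCHRas-shp53, against 95.1, 61.1, 72.9 and 85.0 CPM in NPCTKO. The groups overlapped, and the log2 fold change was 0.44 ± 0.29 (SE; 95% interval -0.22 to 1.11; edgeR adjusted p = 0.343). The first part of the gene lies across 2315 bases of 6330403L08Rik on the opposite strand, which had between 95 and 285 counts. The library kit did not mark strand, so reads of this overlap cannot be assigned to one gene. The deposited FPKM table had a pair of Pdgfa entries, which were summed here. The smaller entry had 4.85, 4.17 and 4.18 FPKM in NSCHRas-shp53, against 5.21, 3.70, 3.92 and 2.84 FPKM in NPCTKO, and the larger had 40.1, 57.4 and 33.5 FPKM in NSCHRas-shp53, against 32.2, 20.8, 30.4 and 30.0 FPKM in NPCTKO.

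Pdgfc (ENSMUSG00000028019; mm10 chr3:81036416-81214040, plus strand) encodes a latent ligand that acts through the alpha receptor. Pdgfc had 11.1, 12.3 and 12.3 CPM in NSCHRas-shp53, against 17.0, 11.3, 10.7 and 15.2 CPM in NPCTKO. The groups overlapped, with a log2 fold change of -0.19 ± 0.33 (SE; 95% interval -0.94 to 0.56; edgeR adjusted p = 0.739), and the levels varied little within either model. The genes annotated inside Pdgfb, Pdgfc, Pdgfd and Pdgfra (Mir7213, Gm16000, Ddi1, Gm42802, Gm42803 and Mir7025) all had 0 counts, which in this table does not show that they had no transcript.

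Per length, Pdgfa and Pdgfb together made up most of the ligand transcript in every library. The 4 ligands summed to 80.9, 84.5 and 61.2 FPKM in NSCHRas-shp53, against 67.2, 79.1, 38.2 and 42.0 FPKM in NPCTKO. Pdgfa was 55.6%, 72.8% and 61.6% of this sum in NSCHRas-shp53, against 55.6%, 31.0%, 89.9% and 78.0% in NPCTKO. Pdgfb was 36.3%, 20.0% and 23.1% in NSCHRas-shp53, against 34.2%, 63.2%, 3.01% and 10.9% in NPCTKO. NPCTKO replicate 2 was the library in which Pdgfb exceeded Pdgfa. In NPCTKO replicate 3, Pdgfb (3.01%) was below Pdgfc (7.06%). Pdgfc contributed 4.51% to 6.50% in NSCHRas-shp53 and 5.69% to 9.99% in NPCTKO, and Pdgfd 2.63% to 8.81% in NSCHRas-shp53 and up to 1.66% in NPCTKO. Over all 6 genes, Pdgfa had the highest FPKM in each NSCHRas-shp53 library, followed by Pdgfb and Pdgfra, whose ranges overlapped (14.2 to 29.4 FPKM for Pdgfb and 14.8 to 19.5 FPKM for Pdgfra), then Pdgfrb, and last Pdgfc and Pdgfd, whose ranges overlapped as well. In NPCTKO, Pdgfra was the highest in every library, above Pdgfa (24.5 to 37.4 FPKM), while the range of Pdgfb (1.15 to 50.0 FPKM) covered those of Pdgfa and Pdgfc, and Pdgfrb and Pdgfd were at the low end with overlapping ranges.

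**Figure D3:**
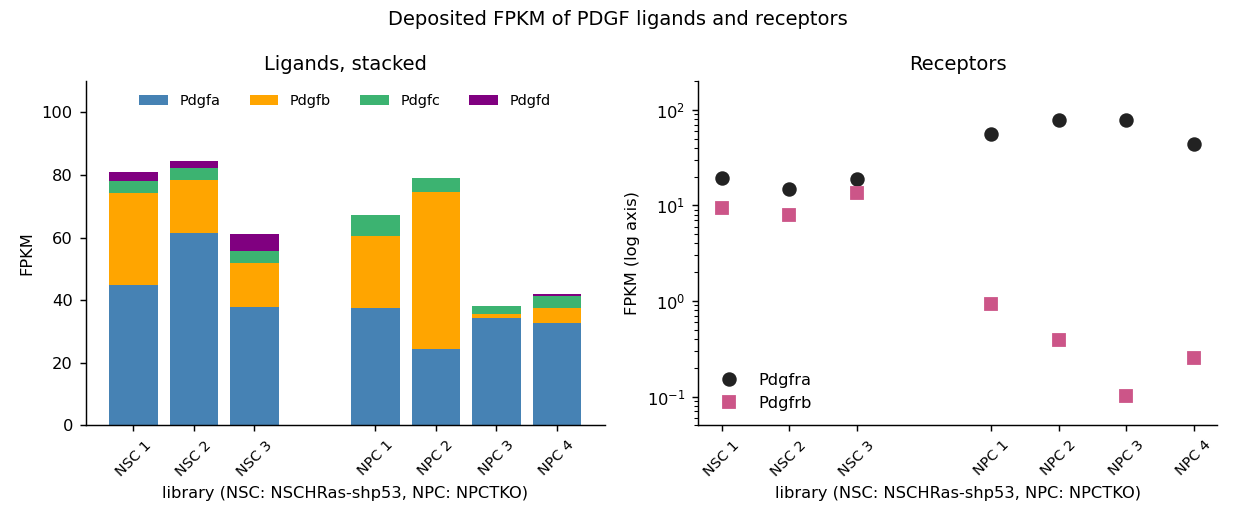
Deposited FPKM by library, with NSCHRas-shp53 (NSC) left of NPCTKO (NPC): the 4 ligands stacked on a linear axis, and both receptors on a log axis. The stacks reach 61.2 to 84.5 FPKM in NSCHRas-shp53 and 38.2 to 79.1 FPKM in NPCTKO, and the gap between the receptors is widest in NPCTKO replicate 3, at 78.5 FPKM for Pdgfra and 0.102 FPKM for Pdgfrb.

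Of the other genes of the pathway, its relatives and the neighbours of Pdgfra, 9 were called, and the count depended on the NPCTKO libraries used. Over 5 lists together, 5 of 76 tested genes (of 78 listed) were higher and 4 lower in NSCHRas-shp53, with a median log2 fold change of -0.05 against -0.10 over all tested genes. These shares, of the genes that process PDGF, carry its signal, limit it, resemble the receptors or lie beside Pdgfra, were close to the background of 7.77% and 5.28%. Without NPCTKO replicates 3 and 4 the calls were 25 higher and 21 lower, while those over all genes were 4638 higher and 4313 lower. Leaving out 1 library gave 1 to 7 higher and 0 to 6 lower.

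Of 13 genes for processing enzymes, co-receptors and binding proteins, 2 were higher and 0 lower (median log2 fold change 0.67), against 7.77% and 5.28% of all tested genes. Plat, the tissue plasminogen activator that can cut and activate PDGF-C, had 729, 724 and 530 CPM in NSCHRas-shp53, against 148, 133, 166 and 270 CPM in NPCTKO (log2 fold change 1.88 ± 0.35, SE; edgeR adjusted p = 0.0143, and 0.0619 without NSCHRas-shp53 replicate 2). Sparc, a matrix glycoprotein that binds PDGF-B, had 1614, 2782 and 2967 CPM in NSCHRas-shp53, against 695, 677, 444 and 499 CPM in NPCTKO (log2 fold change 2.08 ± 0.41, SE; edgeR adjusted p = 0.0162, and up to 0.0718 without NSCHRas-shp53 replicate 2 or 3). The Sparc call held in 16 of 19 alternatives. Plau, the urokinase that can activate PDGF-D, was looked up after its values were seen. Plau had 467, 820 and 848 CPM in NSCHRas-shp53, against 128, 240.4, 13.7 and 36.6 CPM in NPCTKO, with no overlap, and did not pass the test (log2 fold change 2.77 ± 0.85, SE; edgeR adjusted p = 0.0673). CPM did not overlap in this direction for 16.4% of tested genes.

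Of 33 adaptors and effectors of the receptors, 0 were higher and 1 lower (median -0.11), against 7.77% and 5.28% of all tested genes. At an unadjusted p under 0.05 in edgeR, 0 were higher and 5 lower, and no share of all genes was counted at that threshold. DESeq2 called 0 higher and 3 lower, against 2183 higher and 1861 lower of 25061 genes. Without NPCTKO replicates 3 and 4, 10 were higher and 11 lower, while over all genes 4638 were higher and 4313 lower of 16601 tested. The lower one was Gab1, a docking protein for receptor kinases, at 85.0, 46.6 and 47.4 CPM in NSCHRas-shp53, against 131, 126, 185 and 125 CPM in NPCTKO (log2 fold change -1.25 ± 0.33, SE; edgeR adjusted p = 0.0437). The Gab1 call was lost when any 1 of the 7 libraries was left out (adjusted p from 0.0519 to 0.192). The fitted log2 fold changes of the 33 genes lay between -1.25 and 0.81.

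Of 14 phosphatases, ubiquitin ligases and feedback inhibitors, 3 were higher and 1 lower (median 0.56), against 7.77% and 5.28% of all tested genes. Spry4, an inhibitor of signalling from receptor kinases to Ras, had 98.5, 146 and 154 CPM in NSCHRas-shp53, against 40.4, 34.2, 41.5 and 26.1 CPM in NPCTKO (log2 fold change 1.90 ± 0.29, SE; edgeR adjusted p = 0.00786), and was called in all 19 alternatives. Its relative Spry1 had 56.8, 54.9 and 31.0 CPM in NSCHRas-shp53, against 226, 188, 132 and 68.9 CPM in NPCTKO (log2 fold change -1.69 ± 0.46, SE; edgeR adjusted p = 0.0454). Members of one inhibitor family thus stood on opposite sides, and Spry2 lay at 0.01 ± 0.32 (log2, SE). Sh3kbp1, a partner of Cbl in receptor uptake, had 104, 154 and 159 CPM in NSCHRas-shp53, against 49.1, 53.9, 66.3 and 72.7 CPM in NPCTKO (log2 fold change 1.20 ± 0.28, SE; edgeR adjusted p = 0.0294). Errfi1, a feedback inhibitor best known for the EGF receptor, had 332, 92.9 and 142 CPM in NSCHRas-shp53, against 69.4, 52.3, 42.7 and 77.6 CPM in NPCTKO (log2 fold change 1.64 ± 0.45, SE; edgeR adjusted p = 0.0490). Leaving out 1 library ended the call of Errfi1 in all 7 cases (adjusted p up to 0.152), of Spry1 in 5 (without any NSCHRas-shp53 library, or NPCTKO replicate 1 or 2, up to 0.188) and of Sh3kbp1 in 4 (without NSCHRas-shp53 replicate 2 or 3, or NPCTKO replicate 1 or 2, up to 0.130). Of 7 genes for the related class III receptor kinases Kit, Csf1r and Flt3 and their ligands, edgeR called 0 in either direction. Over all tested genes, 7.77% were called higher and 5.28% lower. At an unadjusted p under 0.05 in edgeR, 2 of the 7 were higher, with no share of all genes counted there. DESeq2 called 1 of them higher, against 2183 higher of 25061 genes.

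**Figure D4:**
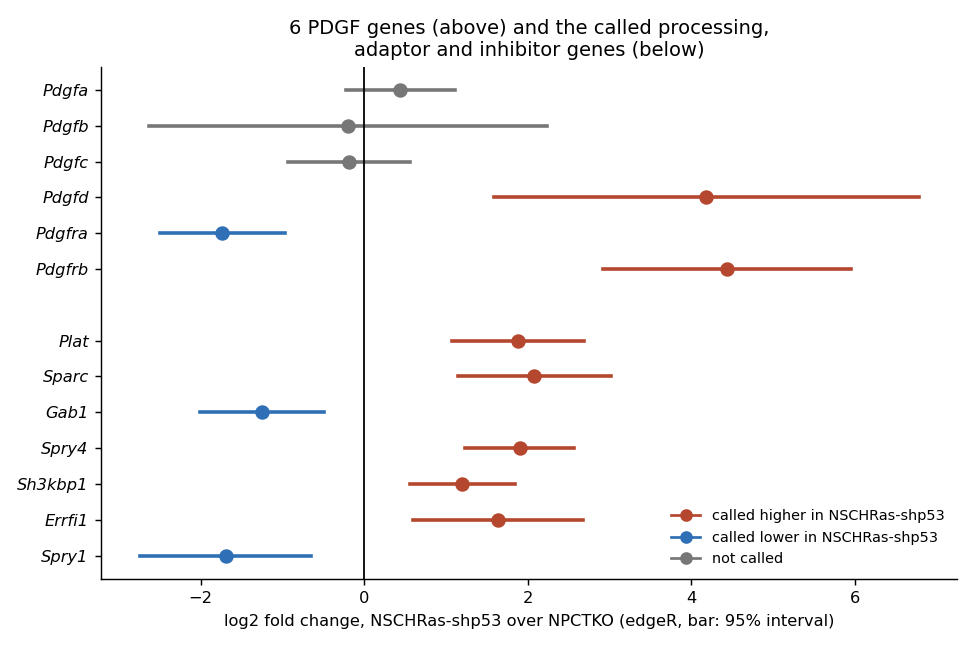
Log2 fold changes of NSCHRas-shp53 over NPCTKO with 95% intervals (edgeR) for the 6 PDGF genes, above, and the 7 called genes for PDGF processing, adaptors and inhibition, below, in red where called higher in NSCHRas-shp53, blue where called lower and grey where not called. Pdgfrb (4.44) and Pdgfd (4.19) lie far to the right, Pdgfra (-1.74) to the left, and the interval of Pdgfb is wide and spans 0.

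Pdgfra lies in a row of receptor kinase genes with Kit and Kdr, and the genes beside it were read from the same fit. Of 12 neighbours 10 were tested, 2 were lower and 0 higher in NSCHRas-shp53, against 5.28% and 7.77% of all tested genes. Their median log2 fold change was -0.46, against -0.10 over all tested genes. The nearest, the homeobox gene Gsx2, lies 74.4 kb away and had 0.328, 0.507 and 0.0863 CPM in NSCHRas-shp53, against 2.35, 2.80, 5.31 and 4.11 CPM in NPCTKO (log2 fold change -3.56 ± 0.70, SE; edgeR adjusted p = 0.0163). Gsx2 had 2 to 10 counts in the NSCHRas-shp53 libraries. Scfd2, a gene of the Sec1 family 620.5 kb away, had 26.5, 23.8 and 25.6 CPM in NSCHRas-shp53, against 61.1, 52.4, 65.6 and 61.3 CPM in NPCTKO (log2 fold change -1.25 ± 0.24, SE; edgeR adjusted p = 0.0159). Both calls were lost when any 1 of the NSCHRas-shp53 libraries was left out (adjusted p up to 0.0676 for Gsx2 and 0.0869 for Scfd2). Over all 19 alternatives, the call held in 15 for Gsx2 and in 14 for Scfd2. With the replicate block, 0 neighbours were called. Chic2, between Gsx2 and Scfd2 in the order of genes, averaged 51.4 ± 5.58 CPM in NSCHRas-shp53 (SD, n = 3) and 62.9 ± 10.2 CPM in NPCTKO (SD, n = 4) and was not called. Kit, the stem cell factor receptor 376.7 kb on the other side, averaged 23.1 ± 7.78 CPM in NSCHRas-shp53 and 41.5 ± 13.9 CPM in NPCTKO (log2 fold change -0.85, edgeR adjusted p = 0.167). Kdr, a VEGF receptor, lay at 0.29 (adjusted p = 0.698, edgeR) and also belongs to the endothelial list. DNA copy number was not measured in these libraries.

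**Figure D5:**
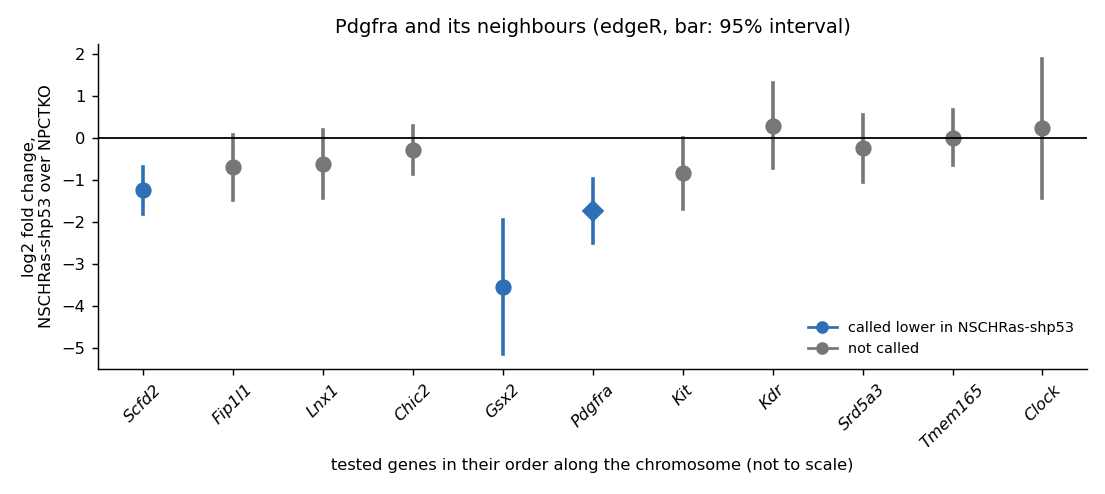
Log2 fold changes of NSCHRas-shp53 over NPCTKO with 95% intervals (edgeR) for Pdgfra (diamond) and its tested neighbours, in the order of the genes along the chromosome and not to scale, blue where called lower in NSCHRas-shp53 and grey where not called. Pdgfra (-1.74), Gsx2 (-3.56) and Scfd2 (-1.25) were called, while the genes between Scfd2 and Gsx2 and those beyond Pdgfra were not.

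For each gene, the 3 genes whose levels were most alike over the 7 libraries were listed by the Pearson correlation of log2(CPM + 1), among genes with a mean of at least 10 CPM. These are descriptions over libraries that differ by model and preparation, and many genes have such profiles. Pdgfrb was most like Il33, an interleukin (r = 0.994), Crebl2 (0.990) and Ncs1 (0.989). Il33 had 129.5, 95.9 and 126 CPM in NSCHRas-shp53, against 22.3, 16.3, 6.50 and 10.6 CPM in NPCTKO. Pdgfra was most like Nudt21, a polyadenylation factor (r = 0.987), Astn2 (0.987) and Zfp41 (0.984). Astn2, a membrane protein of neurons and glia, had 54.9, 35.2 and 40.0 CPM in NSCHRas-shp53, against 112, 148, 132 and 78.6 CPM in NPCTKO. Pdgfd was most like Gm26809, Rflna and Maob, all at r = 0.994. Maob, the monoamine oxidase of astrocytes, had 18.0, 20.2 and 23.2 CPM in NSCHRas-shp53, against 1.94, 1.71, 1.92 and 5.68 CPM in NPCTKO. Pdgfb was most like Rcsd1 (r = 0.994), Alas1 (0.993) and Cst3 (0.993). Cst3, the protease inhibitor cystatin C, had 2082, 1550 and 1599 CPM in NSCHRas-shp53, against 2838 and 4890 CPM in NPCTKO replicates 1 and 2 and 175 and 608.5 CPM in replicates 3 and 4. Pdgfa and Pdgfc, with little spread, had lower top values, with Dync2li1 (r = 0.923) and Cpne2 (0.923) nearest to Pdgfa and Ntng2 (0.939) nearest to Pdgfc.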

How the data were processed

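Bulk RNA was sequenced from 3 NSCHRas-shp53 and 4 NPCTKO tumor samples, with poly(A) selection, a kit that does not mark strand, and paired reads on an Illumina instrument. Per the methods and the submitters' processing notes, reads were trimmed with cutadapt (1.16 in the notes, another version in the methods) and mapped to mm10 with TopHat2 2.1.1. The authors deposited raw counts per gene (49492 genes), and no source used here names the counting tool. The authors also deposited FPKM from Cufflinks 2.2.1 (28538 rows), and rows that shared a gene name were summed here. The Pdgfra row of that table also carries the name Mir7025.

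Counts were tested with edgeR 4.0.16 (quasi-likelihood, TMM factors, filterByExpr, R 4.3.3) between all NSCHRas-shp53 and all NPCTKO libraries, and p-values were adjusted over all 16091 tested genes by the Benjamini-Hochberg method. Intervals are 95% intervals of the fit. CPM used TMM-scaled library sizes. Alternatives were DESeq2 1.42.0, its size factors, no TMM factors, no filter, a mean of at least 1 CPM, and replicate number as a block. Further alternatives left out each library or an NPCTKO pair. Limma 3.58.1 was run on log2(FPKM + 1) and log2(FPKM + 0.1) with a minimum mean of 0.1 FPKM, and on log2(FPKM + 1) without it. Offsets from a loess on transcript GC content (span 0.5, 15674 genes) were added after the data were seen. The scripts were tested on simulated data.

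All PDGF genes were named. Of the pathway lists, called genes with the 3 smallest p in each direction were named, and of the cell lists the 2 genes of highest mean CPM and the called genes with the 2 smallest p. All Pdgfra neighbours could be named, as could the 3 genes most like each PDGF gene. A few values that this rule would give are not reported here. Members and lists were chosen with earlier results of these data known. No library pair agreed within sampling noise. Depth per library was 15002873 to 19840860 counts. Floors (3 counts) cover counting error only.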

Additional observations from a re-analysis of the deposited data

Results flagged for a closer look

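A total of 67 values (named genes, FPKM of the PDGF genes, and summed levels) were examined for a single NPCTKO library far from the other 3, by the gap to the nearest library as a share of the range. 3 were beyond the 95% critical ratio of Dixon's test for 4 samples, and chance alone gives about 1 in 20. Pdgfd stood high in NPCTKO replicate 4, at 2.11 CPM, and the other NPCTKO libraries were at 0.201, 0.311 and 0 CPM. Gab1 was high in NPCTKO replicate 3, at 185 CPM (185.01), and lay between 125 and 131 CPM in the others. Flt1 was low in NPCTKO replicate 3, at 6.82 CPM (6.8155), and lay between 55.5 and 60.7 CPM in the others.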

How the results depend on the processing

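Pdgfa (log2 fold change 0.23 to 0.64) and Pdgfrb (2.99 to 5.66) kept their direction and their side of the threshold in all 19 alternatives, and Pdgfra lost its call only where an NSCHRas-shp53 library was left out. DESeq2 called 2183 genes higher and 1861 lower in NSCHRas-shp53, against 1251 and 850 in edgeR, and 8 and 7 pathway genes, against 5 and 4. Pathway genes here are those of all 5 lists, which include the neighbours of Pdgfra. Without TMM factors, the median log2 fold change of all genes was 0.09 in place of -0.10, 540 genes and 2 pathway genes were lower, 1 PDGF gene was higher, and log2 fold changes were 0.24 for Pdgfb, 0.033 for Pdgfc and 4.31 for Pdgfd (adjusted p = 0.0602). Relative to that median, Pdgfb was higher by less than its SE and Pdgfc stayed below the median. With a mean of at least 1 CPM, 1 PDGF gene was higher and Pdgfd was at 4.20 (adjusted p = 0.0511). Replicate numbers did not pair the samples: the correlations of the deviations of equally numbered samples were 0.28, -0.19 and 0.19, and samples did not always correlate best with their own number. With the replicate block, 718 genes were higher and 323 lower, pathway calls were 2 and 1, and Pdgfb was at 0.49. Without NPCTKO replicates 1 and 2, 1 PDGF gene was higher, with Pdgfb at 2.76 and Pdgfd at 3.57 (edgeR adjusted p = 0.0531 and 0.0979). Without replicates 3 and 4, calls were 4638 and 4313 genes, and 25 and 21 pathway genes. Limma gave Pdgfb 0.88 on log2(FPKM + 1), 1.09 on log2(FPKM + 0.1) and 0.88 with no filter. GC content offsets gave 1526 lower genes, 9 lower pathway genes, and Pdgfb at 0.32. Leaving out 1 library at a time gave 415 to 1387 higher and 124 to 1208 lower genes, 1 to 2 higher and 0 to 1 lower PDGF genes, 1 to 7 higher and 0 to 6 lower pathway genes, and log2 fold changes of -0.61 to 0.87 for Pdgfb, 3.75 to 6.18 for Pdgfd and -1.87 to -1.60 for Pdgfra. The causes of these shifts were not tested. The low counts of Pdgfd and Pdgfrb in NPCTKO limit their precision.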
